A study of Mus musculus with 7 samples.

Results

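Transcripts of the constitutive proteasome and its activators were measured in duodenal scrapings of C57BL/6 mice that were 6 weeks old, with 4 libraries of the genotype Nlrc4-T337S and 3 wild-type libraries. The title of the series writes the mutant genotype as homozygous. The genes were taken by name alone: every gene called Psma, Psmb, Psmc, Psmd or Psme followed by a number, without the 3 inducible catalytic subunits Psmb8, Psmb9 and Psmb10, and with a mean RPKM over the 7 libraries of at least 0.5. RPKM is reads per kilobase of gene model, scaled to mapped reads. Of 22987 listed genes 40 had such a name, and 38 of these passed the level limit. Just outside it stood Psma8, a testis form of an outer-ring subunit, at a mean of 0.0229 RPKM, and Psmb11, the thymus form of a catalytic subunit, at 0.188. Just inside stood Psmd9 at 5.27 RPKM, so no gene lay near the limit. The 38 comprised 14 genes of the core particle (7 Psma and 7 Psmb), 20 of the 19S regulatory particle (6 Psmc and 14 Psmd) and 4 activators (Psme), of which Psme1 to Psme3 are the PA28 family and Psme4 is a separate activator.

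Libraries held 45032119 to 95732587 quality-passing reads, and 84.2% to 97.1% of these mapped. No label ties a library to an animal of its own, and p-values therefore describe the spread among 7 libraries, which may be technical. Enterocyte markers were abundant in every library, with the lowest value of any of 10 markers at 197.5 RPKM (Lct), and markers of Paneth cells and of lymphocytes were present too. In such bulk material, fewer cells of a type and less RNA per cell cannot be told apart. Nlrc4 itself stood at 19.2 ± 0.956 RPKM (SD, n = 4) in Nlrc4-T337S libraries, against 19.7 ± 0.940 RPKM (SD, n = 3) for wild type, which does not check a single amino acid change.

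The proteasome degrades proteins tagged with ubiquitin. Its core is a barrel of stacked rings, with outer rings of Psma subunits that gate entry and inner rings of Psmb subunits, among which Psmb5, Psmb6 and Psmb7 carry the active sites. The 19S particle caps the barrel: its Psmc subunits are ATPases that unfold the substrate, and its Psmd subunits bind ubiquitin, remove it or hold the cap together. The Psme activators are alternative caps. Psme1 and Psme2 form a ring that is inducible by interferon-gamma, Psme3 forms a nuclear ring and Psme4 is a large nuclear activator on its own. Under interferon-gamma the 3 active subunits can be replaced during assembly by Psmb8, Psmb9 and Psmb10, which gives the immunoproteasome of antigen processing.

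The promoters of a constitutive catalytic subunit, of its inducible counterpart, of the constitutive subunit with the lowest fitted change and of an interferon-inducible activator are shown because the comparisons below turn on these genes. The sequences run 5′ to 3′ from 250 bases before to 50 bases after the transcription start, are from RefSeq promoters of build GRCm38.p6, and were placed on mm9 by exact match. Capitals mark matches, on either strand, to TGACNNNGC, the core of the antioxidant response element bound by the proteasome regulator Nfe2l1 and its relatives (Psmb5 and Psmb6), to the interferon-stimulated response element, GAAA repeated after 2 free bases (Psme1), and to the GC box GGGCGG and the CCAAT box (Psmb9). The windows of Psmb6 and Psme1 also hold a GC box each, left in lower case. On mm9 the Psmb6 window is chr11:70338609-70338908 on the plus strand, the Psmb9 window chr17:34324226-34324525 on the minus strand, the Psmb5 window chr14:55236783-55237082 on the minus strand, and the Psme1 window chr14:56197081-56197380 on the plus strand.
Psmb6: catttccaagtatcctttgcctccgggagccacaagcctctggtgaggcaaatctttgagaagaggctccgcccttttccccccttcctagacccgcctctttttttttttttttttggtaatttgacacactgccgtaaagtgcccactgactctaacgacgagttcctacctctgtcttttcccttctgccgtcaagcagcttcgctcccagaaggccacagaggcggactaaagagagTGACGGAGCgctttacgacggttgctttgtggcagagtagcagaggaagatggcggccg
Psmb9: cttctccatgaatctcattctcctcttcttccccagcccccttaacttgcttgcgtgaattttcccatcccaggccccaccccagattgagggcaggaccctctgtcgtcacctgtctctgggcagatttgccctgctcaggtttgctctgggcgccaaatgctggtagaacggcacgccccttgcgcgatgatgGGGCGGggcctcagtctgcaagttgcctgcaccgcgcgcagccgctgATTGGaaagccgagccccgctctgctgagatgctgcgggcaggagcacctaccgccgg
Psmb5: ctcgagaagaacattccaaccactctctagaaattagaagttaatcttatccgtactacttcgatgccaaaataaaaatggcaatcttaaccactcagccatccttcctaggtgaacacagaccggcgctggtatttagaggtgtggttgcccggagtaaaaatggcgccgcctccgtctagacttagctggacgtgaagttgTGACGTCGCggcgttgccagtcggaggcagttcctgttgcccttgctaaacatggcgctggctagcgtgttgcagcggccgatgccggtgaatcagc
Psme1: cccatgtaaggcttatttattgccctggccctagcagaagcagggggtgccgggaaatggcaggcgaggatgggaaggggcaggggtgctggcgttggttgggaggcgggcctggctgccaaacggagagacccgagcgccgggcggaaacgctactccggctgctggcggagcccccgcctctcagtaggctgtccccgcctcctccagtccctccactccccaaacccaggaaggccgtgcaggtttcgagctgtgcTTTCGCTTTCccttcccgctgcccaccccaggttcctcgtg

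RefSeq promoters were matched for 32 of the 38 genes. TGACNNNGC lay in 6 of them (18.8%), among all 27025 genes with a promoter in 14%. The genes were Psmb5, Psmb6, Psmc6, Psmd9, Psmd12 and Psme4. The interferon-stimulated response element lay in 4 (12.5%, against 3.99% of all genes), those of Psmb3, Psmd4, Psmd9 and Psme1. TTCNNNGAA, the gamma-activated site, lay in 1 (3.12%, against 9.55%), that of Psmd2. GGGCGG lay in 21 (65.6%, against 38.2%), CCAAT in 12 (37.5%, against 41.1%) and the TATA box TATAAA in 3 (9.38%, against 15.7%). A match describes the letters of the window and is not a site. The Psmb9 window shares 275 bases with that of Tap1, the peptide transporter subunit transcribed in the other direction.

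Proteasome transcripts were abundant, and RPKM levels, which are per length, differed far more between genes than between genotypes. In wild type the median over genes was 66 RPKM for the core, 30.5 for the 19S particle and 94.9 for the 4 Psme activators, beside 5.71 for all tested genes. Among Psma genes wild-type means ran from 27.9 RPKM (Psma3) to 87.3 (Psma4), and among Psmb genes from 61.7 (Psmb2) to 125 (Psmb4). The Psmc ATPases spanned 31.6 RPKM (Psmc2) to 56.9 (Psmc3). The 8 lid subunits of the 19S particle ran from 17.0 RPKM (Psmd3) to 68.6 (Psmd8). Its 3 assembly chaperones, Psmd5, Psmd9 and Psmd10, which bind ATPases during assembly and are absent from the finished particle, were the lowest of the 19S group at 5.72 to 12.1 RPKM. The extremes of the whole set were Psme2 at 303 and Psmd9 at 5.72 RPKM. If mapped reads were the divisor of the deposited RPKM, the fewest reads per kilobase were 244.7, for Psmd9 in Nlrc4-T337S replicate 2.

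**Figure D1:**
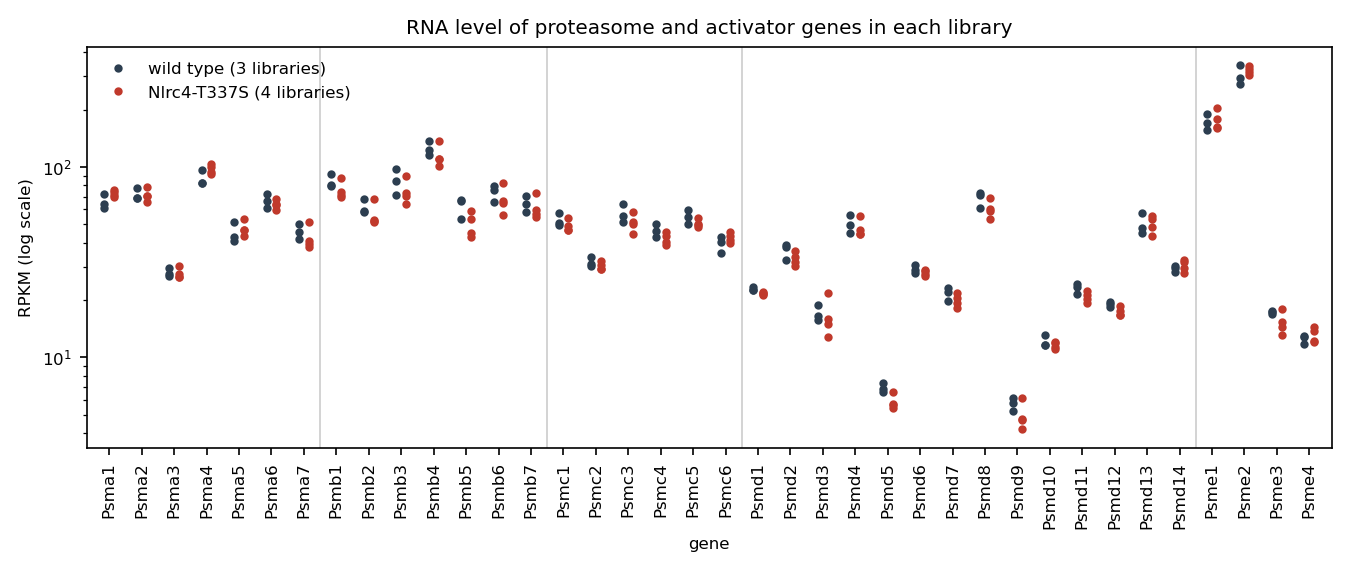
RPKM on a log scale (vertical) of the 38 genes (horizontal), with 1 point per library, dark for the 3 wild-type and red for the 4 Nlrc4-T337S libraries; vertical lines part Psma, Psmb, Psmc, Psmd and Psme. Points of both genotypes overlap for all genes but Psmd1 and Psmd5, and Psme1 and Psme2 stand above all others.

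Whether any of these transcripts differed between genotypes was tested by limma on log2(RPKM + 0.5) over all 10987 tested genes, with Benjamini-Hochberg adjustment at 0.05. None of the 38 passed in either direction: 0 were called higher and 0 lower, where 0.3% and 0.592% of all tested genes were called, 0.892% in either direction. At these rates no call among 38 genes is not in itself a result about the proteasome. The smallest adjusted p was 0.217 (Psmd5). At an unadjusted limma p under 0.05 there were 0 higher genes and 2 lower, Psmb5 and Psmd5, beside 1.86% and 20.4% of all tested genes, 22.2% in either direction. The groups did not overlap for 2 genes, Psmd1 and Psmd5, both lower in Nlrc4-T337S, beside 17.3% of all tested genes that were lower without overlap, 1.97% that were higher and 19.3% in either direction. The intervals bound what could have been missed, given the deposited scaling and the spread among these libraries. Log2 changes lay between -0.32 and 0.16, and the 95% limma interval lay inside a 1.5-fold change in either direction for 37 of 38 genes (66.1% of all tested genes). The exception was Psmb5, the count was 33 to 38 under the alternatives, and for all 38 the interval lay inside a 2-fold change (91.5% of all tested genes).

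The sign of the small changes depended on scaling. As deposited, 29 of 38 log2 changes were below 0 (78% of all tested genes) and their median was -0.09, while the median of all tested genes was itself -0.15. After median-of-ratios scaling, which brings the median of all genes to 0.01, 6 of 38 were below 0. Relative to the median of all tested genes, the core stood at 0.05, the 19S particle at 0.04 and the Psme activators at 0.19 on the log2 scale. No gene was called under any of these scalings.

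**Figure D2:**
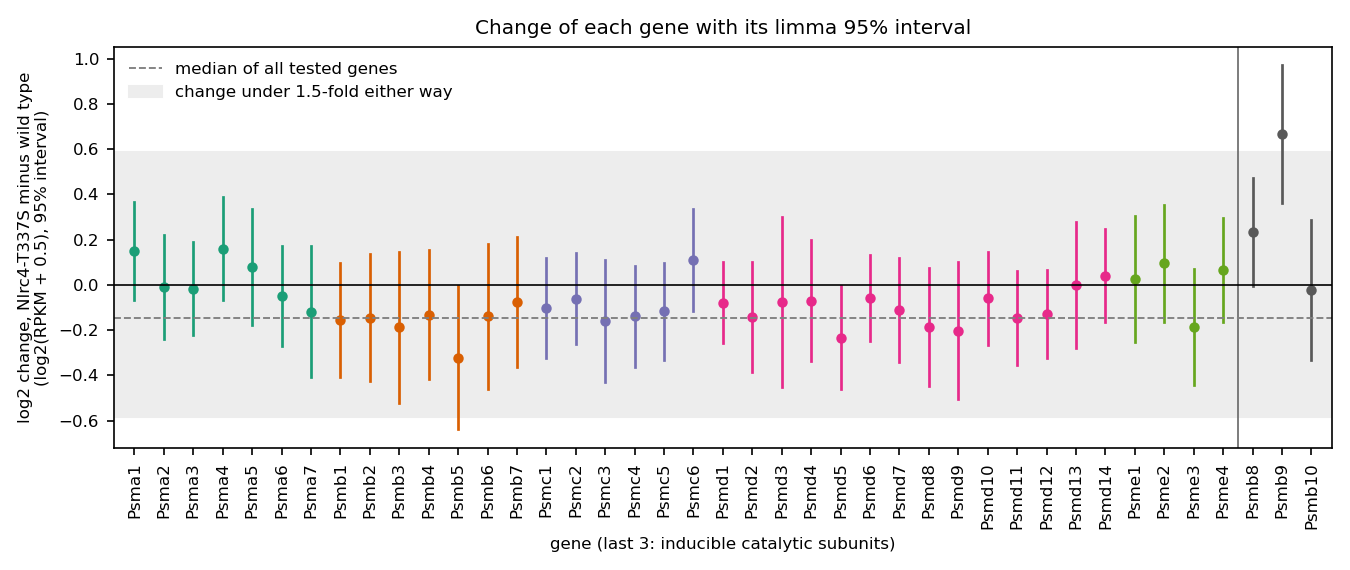
Log2 change of log2(RPKM + 0.5), Nlrc4-T337S minus wild type (vertical), with limma 95% intervals for the 38 genes and, right of the line, Psmb8, Psmb9 and Psmb10; the dashed line is the median of all tested genes and the grey band a change under 1.5-fold. As deposited, all intervals left of the line except that of Psmb5 lie inside the band, and that of Psmb9 lies above 0; the signs of the small changes turn with scaling.

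The outer-ring Psma genes had a median log2 change of -0.01, with 4 of 7 below 0, and none was called. Psma4 (chromosome 9, 54798597 to 54805837, mm9) had the highest fitted change among them, with 93.6, 104, 99.7 and 92.0 RPKM in Nlrc4-T337S replicates 1 to 4 against 96.3, 82.8 and 82.7 in the wild-type replicates 1 to 3. Wild-type replicate 1 lay within the Nlrc4-T337S range and the other two below it (log2 change 0.16, SE 0.10, limma adjusted p = 0.372). Psma7, at the other end, stood at 39.3, 51.6, 38.0 and 40.9 RPKM against 50.4, 41.7 and 45.6, so that Nlrc4-T337S replicate 2 was the highest of all 7 libraries (log2 change -0.12, SE 0.13, limma adjusted p = 0.603; 0.06 after median-of-ratios scaling).

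All 7 inner-ring Psmb genes had log2 changes below 0 as deposited, with a median of -0.15, level with that of all tested genes. After median-of-ratios scaling the Psmb median became 0.03. Psmb5 (chromosome 14, 55232644 to 55236851), the chymotrypsin-like active subunit, was the lowest, at 45.0, 58.8, 42.8 and 53.2 RPKM in Nlrc4-T337S against 67.1, 53.6 and 66.6 in wild type. Wild-type replicate 2 fell among the Nlrc4-T337S values. The log2 change was -0.32 (SE 0.14, 95% interval -0.64 to -0.01; limma adjusted p = 0.219). The genome holds a copy of its whole transcript of 871 bases at 99.0% identity elsewhere, so its reads may be shared. Psmb6 (chromosome 11, 70338869 to 70341360), the caspase-like active subunit, stood at 66.1, 82.7, 55.8 and 64.7 RPKM against 79.8, 65.7 and 75.7 (log2 change -0.14, SE 0.14, limma adjusted p = 0.575; 0.04 after median-of-ratios scaling). Psmb7, the trypsin-like active subunit, stood at 59.6, 73.4, 56.6 and 54.3 RPKM against 70.1, 58.3 and 63.7, the change nearest to 0 of the group (log2 change -0.08, limma adjusted p = 0.740; 0.10 after median-of-ratios scaling). For Psmb6 and Psmb7 the wild-type values lay inside the range of the Nlrc4-T337S values.

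In the 19S particle the 6 Psmc ATPases had a median log2 change of -0.11 and the 8 lid subunits of -0.09, which is 0.04 and 0.05 above the median of all tested genes. Psmc6 (chromosome 14, 45949504 to 45969367) was the only ATPase above 0, at 45.6, 43.5, 41.2 and 40.1 RPKM in Nlrc4-T337S against 42.8, 40.3 and 35.4 (log2 change 0.11, SE 0.10, limma adjusted p = 0.531). Psmc3 was the lowest ATPase, at 51.5, 57.9, 44.3 and 50.1 RPKM against 63.8, 51.7 and 55.1 (log2 change -0.16, SE 0.12, limma adjusted p = 0.447; 0.02 after median-of-ratios scaling). Psmd14, the lid deubiquitinase that removes the ubiquitin chain, had the highest fitted change of the Psmd genes, at 31.7, 32.5, 27.8 and 29.3 RPKM against 30.3, 29.7 and 28.2 (log2 change 0.04, SE 0.09, limma adjusted p = 0.813). Its wild-type values all lay inside the Nlrc4-T337S range. Psmd5 (chromosome 2, 34707608 to 34726459), a chaperone of ATPase assembly, had the lowest, at 5.68, 6.57, 5.40 and 5.65 RPKM against 7.35, 6.84 and 6.58. The groups were parted by 6.57 and 6.58 RPKM (log2 change -0.23, SE 0.10, limma adjusted p = 0.217). Psmd1, the large scaffold subunit of the base, also did not overlap, at 21.7, 22.1, 21.2 and 21.5 RPKM against 22.5, 22.7 and 23.5, and it had the smallest spread within genotypes of all 38 genes (SD of log2 values 0.029). Its change was only -0.08 on the log2 scale (SE 0.08, limma adjusted p = 0.569). The standard error is larger than that spread alone would give because limma shares variance between genes.

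The PA28 pair, inducible by interferon-gamma, had the highest levels and showed no called change. Psme1 (chromosome 14, 56196960 to 56200366) stood at 159, 205, 178 and 163 RPKM in Nlrc4-T337S against 189, 157 and 171 (log2 change 0.03, SE 0.12, 95% interval -0.25 to 0.31; limma adjusted p = 0.909). Psme2 (chromosome 14, 56206278 to 56209950) stood at 315, 341, 328 and 306 RPKM against 343, 274 and 293 (log2 change 0.09, SE 0.11, 95% interval -0.17 to 0.35; limma adjusted p = 0.643). Wild-type replicate 1 was the highest of all libraries for Psme2, and the other two wild-type libraries were the lowest. Relative to the median of all tested genes these changes are 0.17 and 0.24. Psme2 has a near copy at 99.4% identity elsewhere in the genome. Psme3, the nuclear ring, stood at 15.4, 17.9, 13.1 and 14.4 RPKM against 17.5, 16.9 and 17.3, with a wider spread in Nlrc4-T337S (SD 2.04) than in wild type (SD 0.303; log2 change -0.19, SE 0.11, limma adjusted p = 0.356). Psme4, the single-chain nuclear activator, stood at 13.8, 12.02, 12.2 and 14.5 RPKM against 13.0, 12.8 and 11.7 (log2 change 0.07, SE 0.10, limma adjusted p = 0.722).

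Most of the genes varied less within genotypes than the median tested gene, and what variation there was followed the library. The median SD of log2 values within genotypes was 0.115 over the 38 genes and 0.177 over all tested genes, and 33 of the 38 lay below the latter. Levels differed too, with wild-type medians of 48.2 and 5.71 RPKM, and the spread was not compared at matched levels. Psmd3, a lid subunit, varied most, at 12.8, 15.9, 14.9 and 21.7 RPKM in Nlrc4-T337S. Nlrc4-T337S replicate 2 held the highest Nlrc4-T337S value in 34 of 38 genes, and wild-type replicate 1 the highest wild-type value in 37 of 38. The median deviation of all tested genes was also highest within its genotype in these libraries, at 0.047 and 0.104 on the log2 scale. Nlrc4-T337S replicate 3 held the lowest value of all 7 libraries in 19 genes. The mean deviation of the 38 genes from their 7-library means was -0.07, 0.12, -0.12 and -0.06 on the log2 scale in Nlrc4-T337S against 0.16, -0.05 and 0.02, so that the genotypes overlapped. The sum of all RPKM values was highest in wild-type replicate 1 (430280), followed by Nlrc4-T337S replicate 2 (423377), and lowest in Nlrc4-T337S replicate 3 (368278). With every library rescaled to the same sum 0 of 38 genes were called. Split by the submitters' sample order, the median log2 difference of the 38 genes was -0.04 among libraries 1 to 4 and -0.13 among the other 3, and that of all tested genes -0.15 in both. The other 3 hold 1 wild-type library and allow no test.

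**Figure D3:**
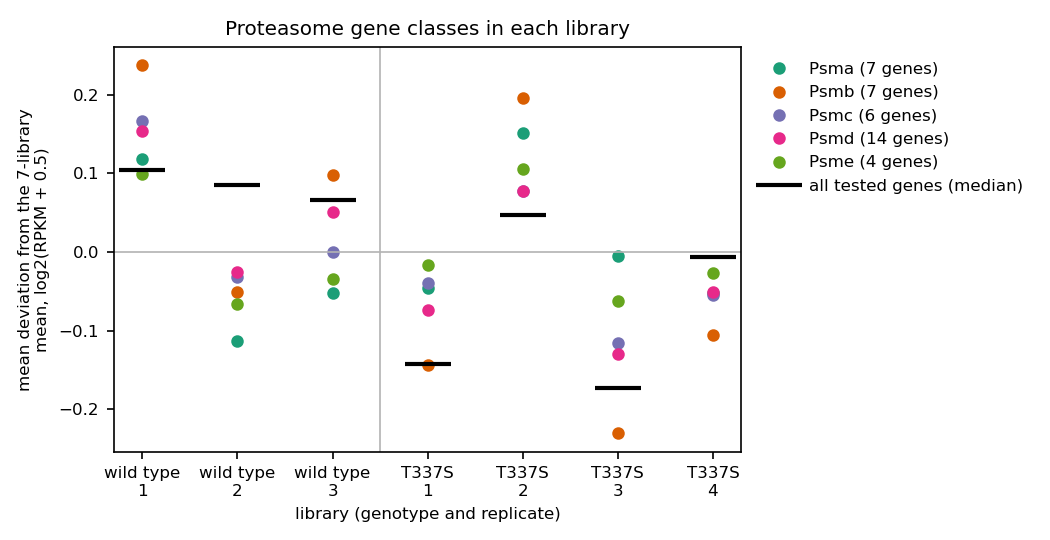
Mean deviation of log2(RPKM + 0.5) from the 7-library mean (vertical) for the Psma, Psmb, Psmc, Psmd and Psme genes in each library (horizontal), with the median of all tested genes as a bar. The classes are high together in wild-type replicate 1 and Nlrc4-T337S replicate 2, where Psmb reaches 0.24 and 0.20, and Psmb is lowest in Nlrc4-T337S replicate 3 at -0.23.

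Outer-ring and inner-ring genes did not keep a fixed proportion across libraries. The mean deviation of Psma minus that of Psmb was 0.10, -0.04, 0.23 and 0.05 on the log2 scale in Nlrc4-T337S replicates 1 to 4, against -0.12, -0.06 and -0.15 for wild type, which did not overlap. The same difference of Psma from Psmc or from Psmd did not overlap either, so it was not particular to the inner ring. That of Psma from Psme overlapped. Mean deviations of Psma were -0.046, 0.151, -0.005 and -0.053 in Nlrc4-T337S against 0.118, -0.113 and -0.052. Those of Psmc were -0.040, 0.077, -0.116 and -0.055 against 0.167, -0.032 and -0.0006. Those of Psmd were -0.074, 0.077, -0.130 and -0.051 against 0.154, -0.026 and 0.050. These contrasts were chosen after their values were seen and are given with no test. The core minus the 19S particle overlapped, at -0.03, 0.10, 0.01 and -0.03 against 0.02, -0.05 and -0.01. Base composition moved with these differences. GC content of the longest coding transcript had a median of 45.0% in Psma and 52.2% in Psmb genes. Across the 38 genes, which share their libraries, the log2 change and GC content had a Spearman rho of -0.47, and across 9768 tested genes with a transcript the rho was -0.26. Within libraries the rho between a gene's deviation and its GC content over the 38 genes was -0.54, 0.33, -0.58 and -0.05 in Nlrc4-T337S, against 0.67, -0.25 and 0.49 for wild type. The part of base composition in the result was not tested beyond this. After each library's trend on GC content was removed, 0 of 38 genes were called, their changes lay between -0.11 and 0.29, the Psma and Psmb medians were 0.08 and 0.03, and Psmb5 stood at -0.11.

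**Figure D4:**
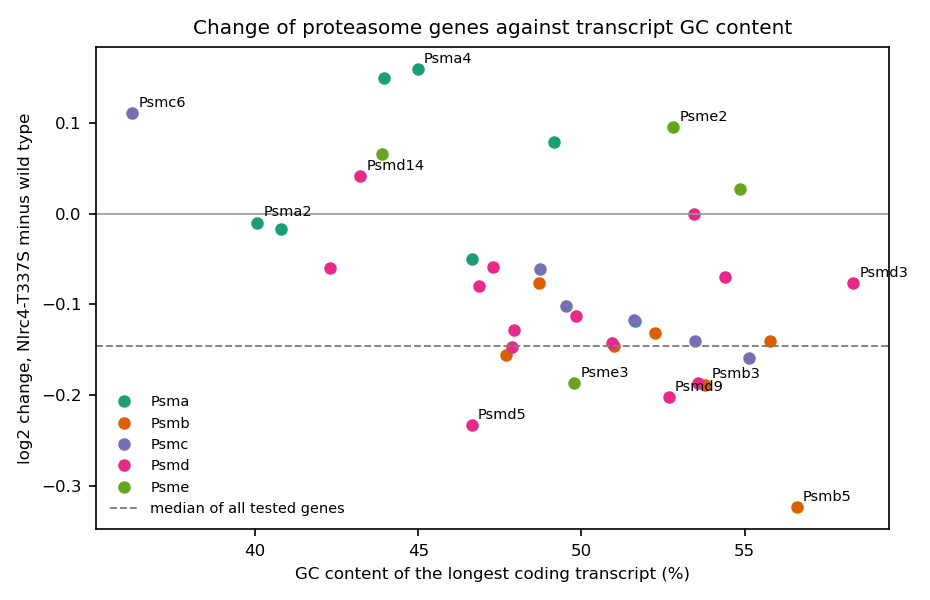
Log2 change, Nlrc4-T337S minus wild type as deposited (vertical), of the 38 genes against the GC content of the longest coding transcript in percent (horizontal), coloured by class; the dashed line is the median of all tested genes. The GC-poor Psma4 and Psmc6 lie at 0.16 and 0.11 and the GC-rich Psmb5 at -0.32, while Psme2 lies above 0 at 52.8% GC.

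The constitutive active subunits were then set against their inducible counterparts within each library, where library scaling cancels. Psmb9 over Psmb6 was 1.32, 1.41, 1.57 and 1.495 in Nlrc4-T337S (mean 1.45 ± 0.107, SD, n = 4) against 0.865, 0.822 and 0.789 in wild type (mean 0.826 ± 0.0379, SD, n = 3). Psmb8 over Psmb5 was 3.11, 2.73, 3.26 and 2.97 (3.02 ± 0.222) against 1.997, 2.18 and 1.96 (2.05 ± 0.118). Every Nlrc4-T337S library lay above every wild-type library for both ratios. Psmb10 over Psmb7 overlapped, at 2.45, 2.47, 2.47 and 3.19 (2.64 ± 0.360) against 2.61, 2.41 and 2.58 (2.53 ± 0.105). On the log2 scale the ratios differed by 0.81, 0.56 and 0.05. In the first, Psmb9 itself changed by 0.67 and Psmb6 by -0.14. In the second, Psmb8 changed by 0.23 and Psmb5 by -0.32, so the denominator moved more than the numerator. As deposited, none of these single genes was called. Two-sided exact permutation over the 35 assignments of libraries gave p = 0.0286, 0.0286 and 0.914, and 0.0429, 0.0429 and 0.914 after Benjamini-Hochberg adjustment over the 3 ratios. The smallest p this design allows is 0.0286. Psmb5 has the near copy described above, which touches its ratio. On opposite strands, exons of Psmb9 overlap those of Tap1, exons of Psmb8 those of Gm20496 and exons of Psmb7 those of Nek6. With libraries that keep no strand, reads there may be shared, and their part in the ratios was not tested.

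**Figure D5:**
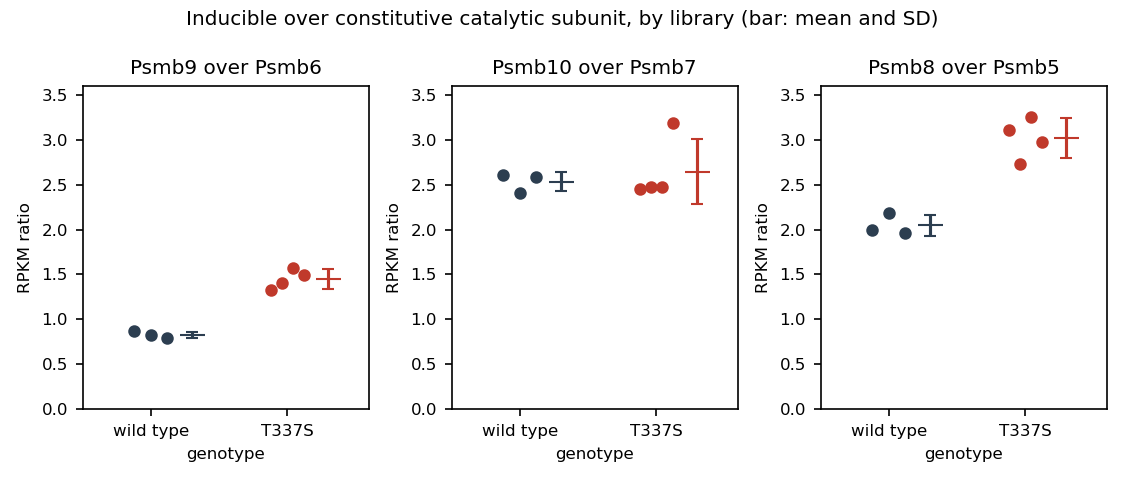
Ratio of RPKM (vertical, from 0) of the inducible to the constitutive catalytic subunit in each library, by genotype, with the mean and SD as a bar beside the 3 wild-type and 4 Nlrc4-T337S points. Psmb9 over Psmb6 and Psmb8 over Psmb5 are higher in all Nlrc4-T337S libraries, and Psmb10 over Psmb7 overlaps with 1 high point at 3.19.

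The numerators themselves were Psmb9 at 97.1 ± 13.7 RPKM (n = 4) against 60.9 ± 7.56 (n = 3; log2 change 0.67, limma adjusted p = 0.0641), Psmb8 at 150 ± 11.5 against 127 ± 9.05 (0.23, limma adjusted p = 0.233) and Psmb10 at 160.1 ± 20.4 against 163 ± 21.1 (-0.02, limma adjusted p = 0.931). Psmb9 passed with equal RPKM sums, with median-of-ratios or quantile scaling, with array weights and with the GC correction (limma adjusted p = 0.0170, 0.0116, 0.0106, 0.0394 and 0.00877), and without Nlrc4-T337S replicate 2 (0.0207). It did not pass with no filter on levels (limma adjusted p = 0.140), with a mean RPKM of at least 2 (0.0768) or with pseudocounts of 0.1 and 1 (0.0701 and 0.0607). Nor did it pass with robust variance (0.0579), with a sample order term (0.0602) or without Nlrc4-T337S replicates 1 and 3 together (0.133). It also did not pass without any single library other than Nlrc4-T337S replicate 2 (0.0986 to 0.263). Some cell type markers also differed between genotypes. Of all tested genes 0.592% were called lower and 0.3% were called higher. Taken singly, 17.3% were lower without overlap and 1.97% higher without overlap. All 9 Paneth cell markers were tested, 3 were called lower, and their summed RPKM was 158 to 754 in Nlrc4-T337S against 1184 to 1749. The summed RPKM of 9 T cell and intraepithelial lymphocyte markers was 370 to 479 in Nlrc4-T337S against 291 to 336.6, with 1 of 8 tested called higher and none of the 9 at 0 in any library. Abundant markers weigh most in that sum: the mean log2 deviation over the markers overlapped between genotypes, at -0.12, 0.26, -0.11 and 0.25 in Nlrc4-T337S against -0.23, 0.01 and -0.06. Stem cell, fibroblast and endothelial, smooth muscle, erythrocyte and pancreatic acinar marker sums were also lower without overlap. Of their tested markers, those called lower were 1 of 5 for stem cells and 2 of 4 for fibroblasts and endothelium. They were 3 of 3 for smooth muscle, 3 of 4 for erythrocytes and 2 of 3 for pancreatic acinar cells. The part of the cell type markers in the ratios was not tested. The enterocyte sums overlapped, at 32565 to 48145 and 35641 to 46682. Macrophage and dendritic cell sums overlapped too, at 14.9 to 57.9 in Nlrc4-T337S against 46.6 to 81.3. So did B and plasma cell sums, at 46.9 to 250 against 235 to 631.

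Among genes around the proteasome 1 was called. The counts below stand beside 0.892% of all tested genes called, 20.4% lower at an unadjusted limma p under 0.05 and 17.3% lower without overlap. In peptide trimming and transport 1 of 9 tested genes was called higher and 0 lower. It was Tap1 (chromosome 17, 34324498 to 34334170), the transporter subunit that carries proteasome products into the endoplasmic reticulum, at 19.3, 20.4, 22.1 and 25.3 RPKM against 14.4, 12.1 and 10.5 (log2 change 0.80, SE 0.13, limma adjusted p = 0.0378). Its call was lost without any 1 library other than Nlrc4-T337S replicate 2 (limma adjusted p = 0.0618 to 0.181; 0.0122 without that library) with no filter on levels (0.123), and without Nlrc4-T337S replicates 1 and 3 together (0.133). Exons of Tap1 and Psmb9 overlap on opposite strands, and with libraries that keep no strand their reads there cannot be told apart. Of 5 chaperones that assemble the core, 0 were called and 3 were lower at an unadjusted limma p under 0.05. Without overlap 2 were lower, Psmg1 and Psmg2, while Psmg3 overlapped. Psmg1 stood at 1.87, 3.09, 2.11 and 2.28 RPKM against 4.07, 3.12 and 3.51 (log2 change -0.53, SE 0.16, limma adjusted p = 0.134) and Psmg3 at 4.49, 6.60, 4.82 and 5.23 against 7.51, 6.51 and 7.32 (-0.41, SE 0.13, limma adjusted p = 0.154). Both passed without Nlrc4-T337S replicate 2 (limma adjusted p = 0.0178 and 0.0227). In that run 1272 genes were called lower, against 65 with all 7 libraries. The list's median was -0.41 beside -0.15 for all tested genes, and Pomp, the maturation factor of the core, was at 0.05.

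Among 8 other 19S subunits and associated factors 0 were called, 0 were lower at an unadjusted limma p under 0.05 and 1 was lower without overlap, with the lowest p for Usp14, a deubiquitinase of the proteasome (3.69 ± 0.377 against 4.33 ± 0.131 RPKM, limma adjusted p = 0.272) and Psmf1, an inhibitor of the core (4.13 ± 0.716 against 5.14 ± 0.744, limma adjusted p = 0.299). Among 7 tested regulators of proteasome genes 0 were called, 1 was lower at an unadjusted limma p under 0.05 and 0 were lower without overlap. Nfe2l1, the transcription factor that raises proteasome genes when the proteasome is impaired, had a log2 change of 0.00 (limma adjusted p = 0.9998), and Ddi2, the protease that activates it, stood at 6.76 ± 0.963 against 10.4 ± 2.58 RPKM (limma adjusted p = 0.146). Next was Maff, a small MAF partner, at 4.95 ± 0.884 against 5.90 ± 0.508 RPKM (limma adjusted p = 0.3496). Among 14 genes of ubiquitin supply and delivery 0 were called, 3 were lower at an unadjusted limma p under 0.05 and 2 were lower without overlap. Uba1, the main ubiquitin-activating enzyme, stood at 35.9 ± 2.91 against 44.5 ± 2.49 RPKM (log2 change -0.31, SE 0.10, limma adjusted p = 0.145). Nfe2l1 was chosen for mention after its values were seen.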

How the data were processed

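Libraries were made with a TruSeq RNA kit, a kind that keeps no strand, from duodenal scrapings, per the labels' protocols. TopHat 2.1.0 mapped the reads to mm9, and per the file headers the authors deposited RPKM values that Partek 6.16.0606 computed; the gene models, and how reads with several places were counted, are not stated there. The deposited read count of each library is of quality-passing reads. The deposited fraction of mapped reads, headed as a percent, was multiplied to a percent. Read counts and mapped shares are given as ranges.

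Count models do not suit RPKM. For the 10987 genes that reached a mean of 0.5 RPKM, log2(RPKM + 0.5) was tested with limma 3.58.1 in R 4.3.3 (mean-variance trend, no covariate, two-sided, Benjamini-Hochberg over all tested genes). Ratios were tested by exact permutation. Alternatives were other pseudocounts, filters, scalings, weights, a sample order term and leaving out libraries; the correction for transcript GC content was chosen after seeing the data. The steps were tested on simulated data.

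The genes and lists were chosen with earlier results of these data known. Full values were given for genes that passed, the highest and lowest fitted change of each class, the active subunits and all Psme genes, and, from each other list, those that passed or otherwise the 2 with the smallest p. One gene that this rule names is not reported here. Positions and transcripts are from GENCODE vM1 on mm9. Near copies were sought with blastn 2.17.0 (at least 95% identity over 200 bases); 10 of the 38 genes had one. Figures were drawn with matplotlib 3.10.9.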

Additional observations from a re-analysis of the deposited data

Results flagged for a closer look

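In 53 sets of 4 Nlrc4-T337S values (the 38 genes, 12 named genes of other lists and 3 ratios), the highest or lowest library's gap to its neighbour, as a share of the whole range, passed Dixon's 95% critical value for 4 samples in 2; chance alone flags about 1 in 20 sets. Psmb2, an inner-ring subunit, stood at 51.4, 67.6, 52.0 and 52.9 RPKM, with replicate 2 apart (0.905). That library held the highest Nlrc4-T337S value of 34 of the 38 genes. The ratio of Psmb10 over Psmb7 stood at 2.45, 2.47, 2.47 and 3.19, with replicate 4 apart (0.964). In that library Psmb10 was at 173 and Psmb7 at 54.3 RPKM.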

How the results depend on the processing

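The counts of 0 higher and 0 lower among the 38 genes held under every alternative run, and the smallest adjusted p of any of them was 0.0857 (Psmb5, limma without Nlrc4-T337S replicate 2). Background counts moved more. Nlrc4-T337S replicates 1 and 3 were left out together because they had the lowest crypt marker levels (Paneth marker mean log2 deviation -1.73 and -1.72, the other Nlrc4-T337S libraries 0.36 and -0.80, wild type 0.99 to 1.55). Genes called higher were 33 as deposited, 7 with no filter, 71 after median-of-ratios scaling, 74 after quantile normalization, 61 with array weights, 62 at a threshold of 0.10, 67 with GC correction (chosen after seeing the data), 1 without Nlrc4-T337S replicates 1 and 3 together, and 9 to 74 with single libraries left out. Genes called lower were 65, 38 with no filter, 28 at a mean RPKM of at least 2, 287 with array weights, 250 at a threshold of 0.10, 105 with a sample order term, 1 without that pair of libraries, and 5 to 1272 with single libraries left out. The highest counts, 74 and 1272, were without Nlrc4-T337S replicate 2. Higher calls were 33.7% of all calls as deposited and 52.2%, 55.6% and 57.3% after median-of-ratios scaling, quantile normalization and GC correction.

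Medians of the core, 19S and Psme genes (-0.10, -0.11 and 0.05) became 0.080, 0.068 and 0.22 after median-of-ratios scaling and 0.066, 0.059 and 0.19 with GC correction; after quantile normalization the 19S and Psme medians were -0.012 and 0.13. Signs that turned, none with a call, were those of Psma7, Psmb6, Psmb7, Psmc3 and Psmb10 at 0.058, 0.038, 0.10, 0.018 and 0.15 with median-of-ratios scaling and 0.070, 0.071, 0.082, 0.052 and 0.19 with GC correction, of Psmb10 at 0.031 with equal sums and 0.094 with quantile normalization, of Psma7 at 0.0056 and Psmb10 at 0.13 without Nlrc4-T337S replicates 1 and 3, and of Psme1 at -0.0051 with array weights. With single libraries left out Psmb10 ranged from -0.12 to 0.065 and Psme1 from -0.046 to 0.10. The cause was not tested. The log2 ratio differences ranged from 0.77 to 0.85 (Psmb9 over Psmb6), 0.52 to 0.60 (Psmb8 over Psmb5) and -0.039 to 0.087 (Psmb10 over Psmb7, below 0 without Nlrc4-T337S replicate 4). With 6 libraries exact permutation cannot reach 0.05: the first pair had p = 0.0667 or 0.1, the smallest possible, and no overlap. No paired analysis was possible because the labels give no replicate numbers that the genotypes share. The fewest reads per kilobase of any of these genes in any library were 244.7, if mapped reads were the divisor.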
